A study of Mus musculus with 32 samples.

Results

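The genes described here are 33 genes of glucose uptake, glycolysis and the response to low oxygen, named as a list and matched to the arrays by gene symbol. Of these, 29 had a probe set that carried their symbol alone and were tested among 13705 genes, each represented by its probe set with the highest mean over the 32 arrays. Gapdh had only the manufacturer's control probe sets and probe sets that carry several symbols, Bnip3l shared its probe sets with a pseudogene, and Gpi1 and Eno1 had no probe set under their symbols, so these 4 were not tested. All 29 tested genes passed the filter on low values, although Adm lay below the filter level on 4 arrays and Slc16a3 on 1.

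Expression was measured in jaw tissue of C57B6 mouse embryos at embryonic day 13.5 (E13.5). Wnt1cre;Alk5fl/+ mice had been crossed with Alk5fl/fl mice. Alk5, gene symbol Tgfbr1, encodes the type I receptor of TGF-beta, and Wnt1-Cre recombines floxed alleles in the neural crest, which forms most of the jaw mesenchyme. Embryos labelled Alk5 knockout, called mutants here, had been recognised by a cleft palate together with a defect of the calvaria, and littermates served as controls. The labels do not give the genotype of each control, so controls that carry Cre with 1 floxed allele and controls without Cre cannot be told apart. Mandible and maxilla were each divided into a distal and a proximal end, which with genotype made 8 groups of 4 arrays, numbered 1 to 4. The labels do not say which arrays came from 1 embryo, and p-values therefore cover only the variation among the arrays, some of it possibly technical.

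Glycolysis converts glucose to pyruvate in a chain of cytosolic enzymes, and lactate dehydrogenase turns pyruvate into lactate when mitochondria do not take it up. When oxygen is scarce, the prolyl hydroxylases that mark HIF-1alpha for breakdown slow down. The stabilised factor then binds short DNA motifs, the hypoxia response elements, and raises transcription of glucose transporters, most glycolytic enzymes, mitophagy genes and angiogenic factors. Embryonic tissue of this stage is known for high glycolysis and for regions of low oxygen.

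The promoters of 5 members are printed here, chosen after their values were seen: Eno3, Hk2 and Ldha passed the test in a genotype comparison, and Bnip3 and Ankrd37 are HIF targets with large average differences. For Ldha the upstream of its RefSeq windows is shown. Each window runs from 250 bases before to 50 bases after the transcription start in RefSeq (GRCm38.p6) and is written 5' to 3' on the strand of the gene. Capitals mark the core letters of hypoxia response elements, ACGTG or GCGTG, on either strand, so that CACGT and CACGC are their reverse complements.
Eno3 promoter, chr11:70656926-70657225, plus strand: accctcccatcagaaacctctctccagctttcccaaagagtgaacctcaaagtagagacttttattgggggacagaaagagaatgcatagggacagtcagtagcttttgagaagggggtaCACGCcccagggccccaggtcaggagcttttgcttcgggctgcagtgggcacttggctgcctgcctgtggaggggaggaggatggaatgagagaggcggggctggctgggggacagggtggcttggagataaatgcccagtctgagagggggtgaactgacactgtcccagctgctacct
Hk2 promoter, chr6:82774405-82774704, minus strand: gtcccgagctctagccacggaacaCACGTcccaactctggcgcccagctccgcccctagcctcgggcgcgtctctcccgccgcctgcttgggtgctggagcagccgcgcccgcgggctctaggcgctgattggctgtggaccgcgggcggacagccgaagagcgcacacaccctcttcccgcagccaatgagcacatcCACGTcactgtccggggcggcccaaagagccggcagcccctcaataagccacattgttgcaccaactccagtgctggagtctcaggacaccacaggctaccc
Ldha promoter, chr7:46845554-46845853, plus strand: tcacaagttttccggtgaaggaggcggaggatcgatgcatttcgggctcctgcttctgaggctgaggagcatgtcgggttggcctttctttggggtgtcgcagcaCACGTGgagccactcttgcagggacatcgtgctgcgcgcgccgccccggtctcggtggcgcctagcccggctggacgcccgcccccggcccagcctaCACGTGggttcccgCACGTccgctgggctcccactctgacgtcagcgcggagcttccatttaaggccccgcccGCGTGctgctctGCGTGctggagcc
Bnip3 promoter, chr7:138909457-138909756, minus strand: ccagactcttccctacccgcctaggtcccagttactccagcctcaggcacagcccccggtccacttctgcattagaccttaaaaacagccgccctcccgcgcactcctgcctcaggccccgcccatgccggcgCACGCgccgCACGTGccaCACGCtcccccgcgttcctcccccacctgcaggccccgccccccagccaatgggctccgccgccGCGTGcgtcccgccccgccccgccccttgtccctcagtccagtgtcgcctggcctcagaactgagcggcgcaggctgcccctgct
Ankrd37 promoter, chr8:45999801-46000100, minus strand: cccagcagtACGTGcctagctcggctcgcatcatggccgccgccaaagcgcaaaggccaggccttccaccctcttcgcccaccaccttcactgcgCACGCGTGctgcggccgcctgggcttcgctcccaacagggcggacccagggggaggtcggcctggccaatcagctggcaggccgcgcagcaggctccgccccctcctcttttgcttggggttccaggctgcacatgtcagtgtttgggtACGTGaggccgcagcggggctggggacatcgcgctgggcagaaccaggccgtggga
The Eno3 window held 1 GCGTG and 0 ACGTG. The Hk2 window held 2 ACGTG, and the Ldha window held 5 ACGTG and 2 GCGTG. Ldha has the palindrome CACGTG 2 times, and each of these counts as a match on both strands, as does the 1 CACGTG of Bnip3. Bnip3 had 2 ACGTG and 3 GCGTG, and Ankrd37 had 2 of each. RefSeq promoters were matched for 30 of the 33 members, 44 windows in all, and 36 of them (81.8%) held at least 1 of the motifs, against 43.8% of all 32851 promoters of the same length. ACGTG was in 56.8% of the member windows and 19.6% of all windows, and GCGTG in 59.1% and 32.4%. Many members were listed because they are known targets of HIF, and a match to 5 letters is a description of the sequence, not a binding site.

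Some properties of the arrays bear on the values below. Tgfbr1, the targeted gene, was 0.26 ± 0.05 (SE) higher in mutants on average at its tested probe set (limma, adjusted p = 0.0637), with calls in distal mandible (0.28, adjusted p = 0.0411) and distal maxilla (0.41, adjusted p = 0.00477). Where that probe set lies relative to the deleted part is not given in the sources used here, so it does not check the labels. The 8 arrays of number 1 stood apart in the Cre spike-in control, which read 13.53 to 13.85 on them and 12.17 to 13.07 on the other 24. Xist marked the arrays of control number 2 and mutant number 1 as female (13.34 to 14.06), while control maxilla arrays of number 3 read 9.69 and 10.72 and the remaining 22 read 6.38 to 6.96. On control distal mandible array 3 the Gapdh control probe sets differed by 2.23 between 3' and 5' ends, against -0.18 to 0.12 on the other 31 arrays. Mutant distal maxilla array 1 had a narrower spread, with an SD over its probe sets of 2.37, against 2.50 to 2.56 on the other 31 arrays. Its filter level was 6.86, against 6.66 to 6.74. This array held the lowest mutant value of Eno3, Pfkfb3, Ankrd37 and P4ha2 given below. Hand2, a transcription factor of the lower jaw, was 4.99 higher in distal mandible than in distal maxilla of controls, which checks the jaw labels. The values are deposited log2 expression values, so a difference of 1 is a 2-fold change. Levels of different genes cannot be compared on this scale, and fewer cells of a type cannot be told apart from less RNA per cell in whole tissue.

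The first comparison asked whether the genes differed between mutant and control jaws when the 4 regions of a genotype and number were averaged. Eno3, which encodes beta-enolase, the muscle-type form of the enzyme that makes phosphoenolpyruvate, was the 1 member that passed the test. Averaged Eno3 was 9.32, 9.23, 9.37 and 9.17 in controls of number 1 to 4 and 10.30, 10.42, 10.42 and 10.33 in mutants. The ranges did not overlap, and the gap between them was wider than the spread within either genotype. The difference was 1.09 ± 0.06 (SE, n = 4 against 4), a 2.13-fold rise, with an adjusted p of 0.000519 in limma's fit of all 13705 genes. Eno3 ranked 1 by p and 12 by size of rise among all genes. Of all genes, 1.37% passed in either direction and 0.503% as higher, so that 1 call among 29 members is near the background. Eno3 was higher in the mutant of each number, by 0.98, 1.19, 1.05 and 1.15.

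Of the 29 members, 24 had a difference above 0, with a median of 0.18, while 6852 of all 13705 genes were above 0 with a median of -0.00. Without Eno3 the median was 0.17. At an unadjusted p under 0.05 stood 10 members (34.5%), against 1924 of all 13705 genes (14.04%). The members were listed with earlier results of these data known. Their counts beside those of all genes, here and below, therefore describe the list and do not test it. In 6 members (Hk2, Eno3, Pkm, Ldha, Bnip3 and Adm) all mutant averages lay above all control averages, an arrangement that held for 3.84% of all genes, and in 0 members did they all lie below, against 7.14% of all genes. The shift was thus small for most members, and it passed the test in Eno3 alone.

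**Figure D1:**
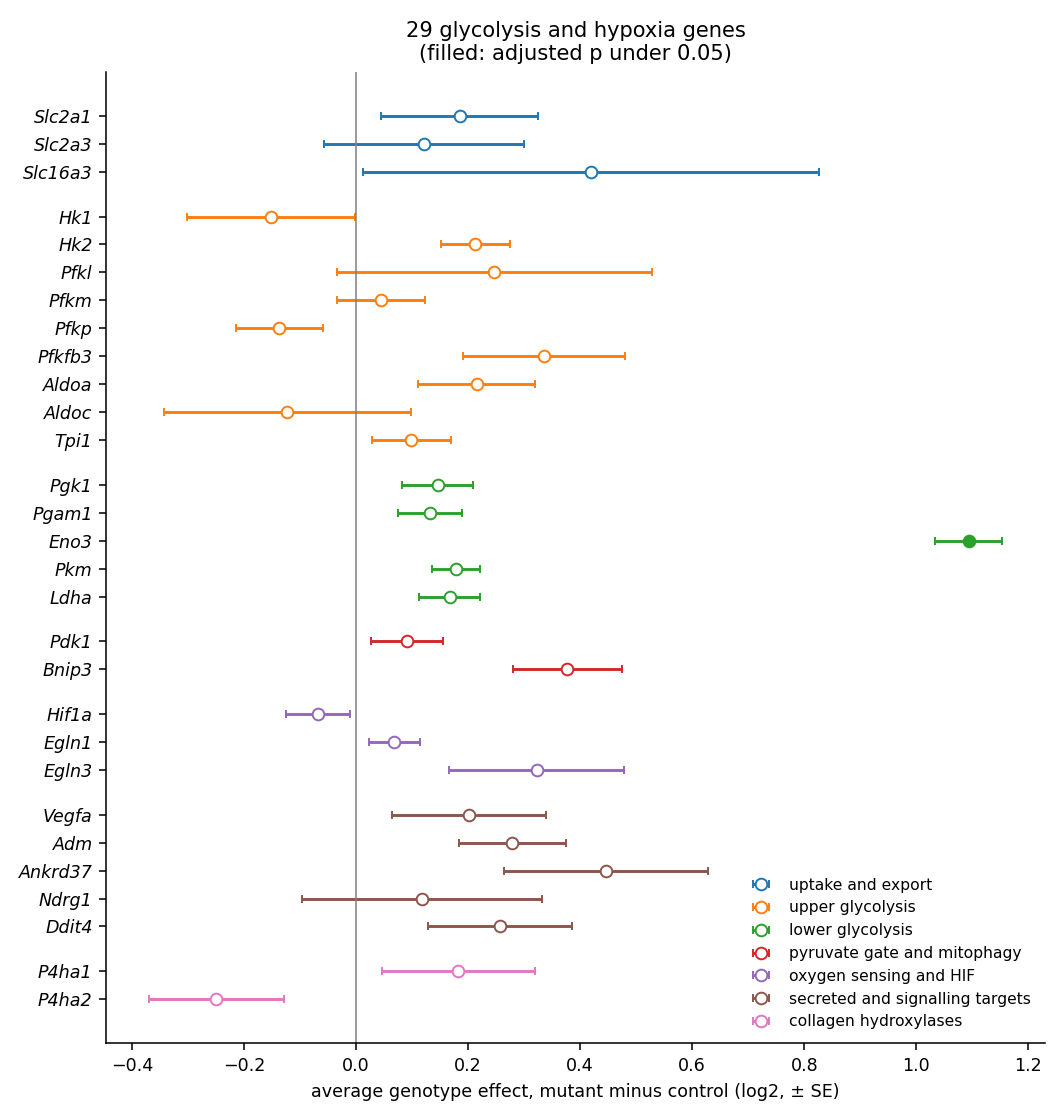
Average genotype effect of the 29 tested members (log2, mutant minus control, horizontal axis; bars are the SE; 4 averaged values per genotype), grouped by role. Eno3 at 1.09 is the 1 filled point and stands apart from the others, which lie between -0.25 and 0.45.

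In the group of uptake and export, the glucose transporters Slc2a1 and Slc2a3 were 0.18 ± 0.14 and 0.12 ± 0.18 higher in mutants on average, and neither passed the test (adjusted p = 0.641 and 0.846). Slc16a3, the lactate exporter MCT4 and a HIF target, had the largest difference of the 3, at 0.42 ± 0.41 with an adjusted p of 0.743. The large error goes with a wide spread over the arrays of each group. In distal mandible it read 9.01, 7.45, 7.30 and 7.26 in controls and 9.03, 8.07, 7.59 and 8.05 in mutants. In proximal mandible it read 8.70, 6.92, 6.88 and 7.18 against 8.39, 7.61, 7.46 and 7.32. Array 1 was the highest in both genotypes in both places. In distal maxilla Slc16a3 read 8.83, 6.85, 7.35 and 7.56 in controls and 8.83, 7.73, 7.72 and 7.59 in mutants. In proximal maxilla it read 8.32, 7.58, 6.77 and 6.48 against 8.81, 7.39, 7.54 and 8.003. In all 8 groups array 1 had the highest Slc16a3 value, and control and mutant overlapped in every region.

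Upper glycolysis, from hexokinase to triose phosphate isomerase, had 9 tested members. On average 6 were above 0 and 3 below, and 0 passed the test. At an unadjusted p under 0.05 stood 2 of the 9, against 14.04% of all genes. Pfkfb3, which makes the activator of phosphofructokinase, had the largest difference (0.33 ± 0.14, adjusted p = 0.348). Hk2, the inducible hexokinase that starts glycolysis, was 0.21 ± 0.06 higher (adjusted p = 0.151). Pfkl was 0.25 ± 0.28 higher, Aldoa 0.22 ± 0.10, Tpi1 0.10 ± 0.07 and Pfkm 0.05 ± 0.08, with adjusted p from 0.406 to 0.879. Hk1, the constitutive hexokinase, was at -0.15 ± 0.15, Pfkp at -0.14 ± 0.08 and Aldoc at -0.12 ± 0.22. The other probe set of Hk1 differed by 0.04, with 0.66, -0.32, 0.01 and -0.20 from distal mandible to proximal maxilla. Pfkp had other probe sets at 0.04 and 0.15, but these were dim, below the filter level on 19 and on all 32 arrays.

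Pfkfb3 in controls read 8.84, 9.34, 8.90 and 9.12 in distal mandible and 8.73, 9.07, 9.02 and 9.17 in proximal mandible. In mutants it read 9.20, 9.97, 9.43 and 9.92 in distal mandible and 9.09, 9.53, 9.27 and 9.31 in proximal mandible. Both ends had overlapping groups, since 1 control array of distal mandible and 1 of proximal mandible were above the lowest mutant array. In distal maxilla controls read 8.96, 8.91, 9.07 and 8.95 and mutants 8.14, 9.38, 9.22 and 9.42, with mutant array 1 below every control. In proximal maxilla controls read 8.98, 8.92, 8.81 and 8.79 and mutants 9.08, 9.22, 9.07 and 9.69, which did not overlap. Its regional differences were 0.58, 0.30, 0.07 and 0.39, with adjusted p from 0.149 to 0.999.

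Lower glycolysis, from phosphoglycerate kinase to lactate dehydrogenase, had 5 tested members, all above 0 on average and all at an unadjusted p under 0.05, where 14.04% of all genes stood. Beside Eno3 these were Pkm (pyruvate kinase, 0.18 ± 0.04, adjusted p = 0.0994), Ldha (the lactate dehydrogenase subunit of glycolytic tissue, 0.17 ± 0.05, adjusted p = 0.201), Pgk1 (0.15 ± 0.06) and Pgam1 (0.13 ± 0.06). These 4 did not pass the test, although in Pkm the averages of 13.25, 13.25, 13.27 and 13.32 in controls lay below those of 13.49, 13.46, 13.43 and 13.43 in mutants. Gapdh was read on the manufacturer's control probe sets for the 3' end, middle and 5' end of its transcript, where it differed by 0.08, 0.18 and 0.25 on average, with no test. The last of these rests on control distal mandible array 3, and without that array the averages were 0.07, 0.12 and 0.10. Pgam1 was also low on that array, at 12.42 against 12.93 to 13.06 on the other distal mandible controls. Its average effect was not fitted without that array alone.

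Eno3 was then followed by region. In distal mandible control arrays of Eno3 read 9.46, 9.42, 9.91 and 9.27 and mutant arrays 10.75, 10.39, 10.49 and 10.60. In proximal mandible it read 9.85, 9.01, 9.27 and 9.48 against 10.61, 10.28, 10.60 and 10.16. Every mutant array was above every control array in both ends of the mandible. In distal maxilla controls read 8.95, 9.18, 9.16 and 9.07 and mutants 9.57, 10.69, 10.54 and 10.34. In proximal maxilla controls read 9.04, 9.31, 9.15 and 8.88 and mutants 10.30, 10.32, 10.06 and 10.20. Here too the groups did not overlap, and mutant distal maxilla array 1 was the lowest of the 16 mutant arrays.

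The Eno3 differences, in the same order of regions, were 1.04, 1.01, 1.19 and 1.13, each ± 0.18 (SE), with adjusted p of 0.00245, 0.00324, 0.00307 and 0.0113 in limma's model of the 8 groups. The background of called genes was 1.91%, 1.26%, 0.788% and 0.0657%. Among all 13705 genes, 7 (0.0511%) had every mutant array above every control array in all 4 regions, and Eno3 was 1 of them. The genotype effect on Eno3 did not differ detectably between jaws (-0.13 ± 0.18, adjusted p = 0.953) or ends (0.05 ± 0.18, adjusted p = 0.999). In controls Eno3 was 0.43 ± 0.18 higher in mandible than in maxilla at the distal end and 0.31 ± 0.18 at the proximal end, neither of which passed (adjusted p = 0.396 and 0.476).

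The regional calls of Eno3 were less firm than its average. Without number 4 the adjusted p in distal mandible was 0.0790, and in proximal mandible it was 0.0596 without number 2 and 0.143 without number 3. In distal maxilla it was 0.119 without number 3, and 0.204 in a fit of only the 2 groups compared. In proximal maxilla it was 0.0987, 0.0960 and 0.127 without numbers 2, 3 and 4, 0.0523 without mutant array 2, and 0.0691 in a fit of only the 2 groups compared. The difference itself stayed between 0.88 and 1.43 with any number or array left out, and for the average effect Eno3 passed the test in every alternative run.

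**Figure D2:**
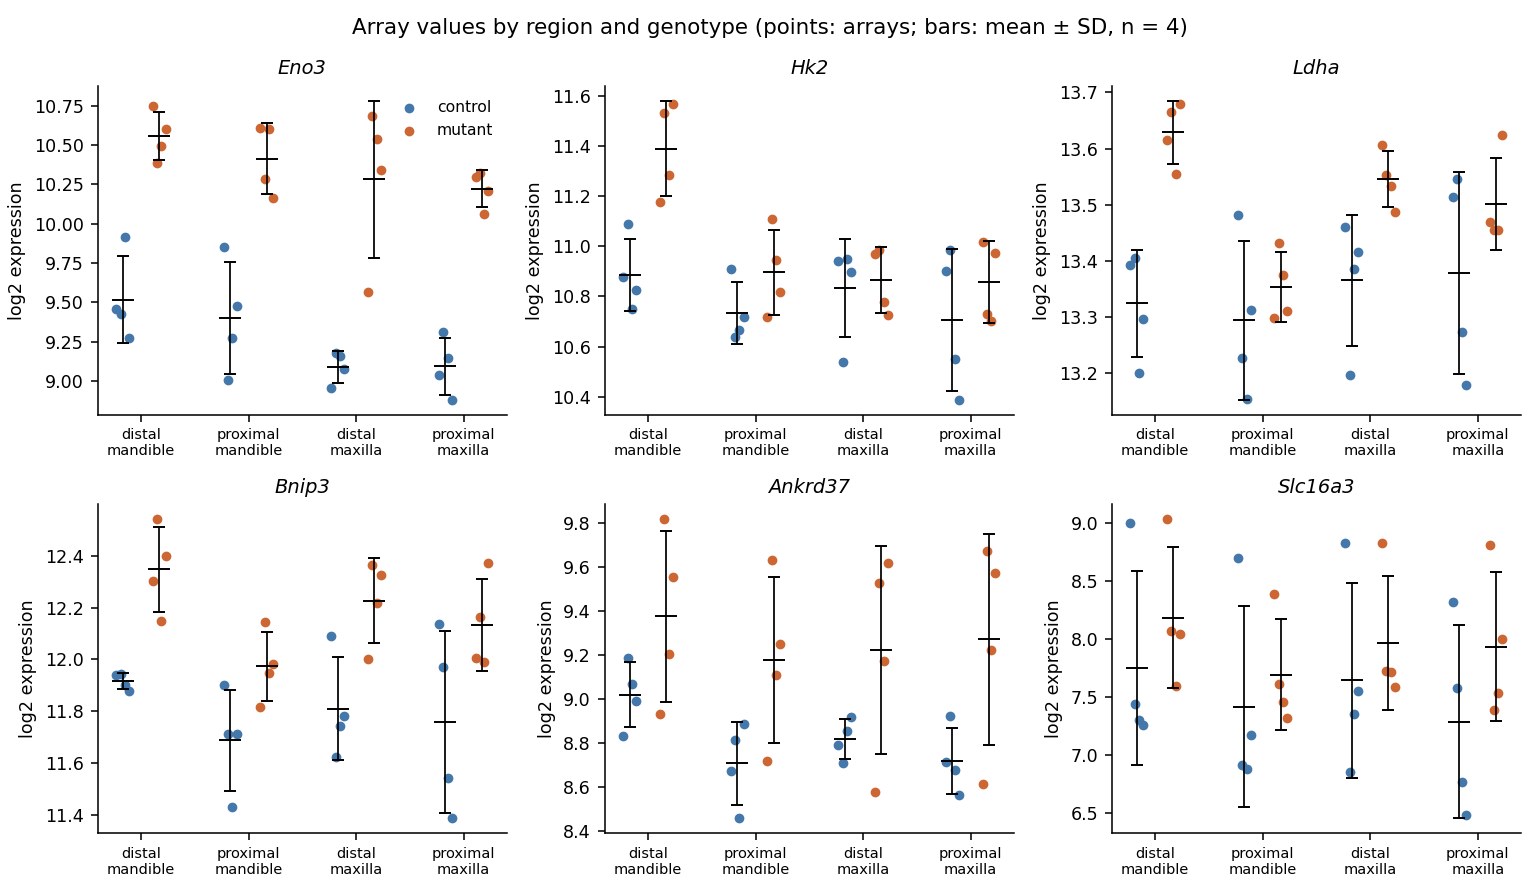
Array values of Eno3, Hk2, Ldha, Bnip3, Ankrd37 and Slc16a3 (log2 expression, vertical axes of different range) in the 4 regions for controls and mutants. Points are arrays in the order 1 to 4 from left to right, and bars are the mean ± SD (n = 4). Eno3 is separated by genotype in all 4 regions, Hk2 only in distal mandible, and array 1 is highest for Slc16a3 in every group.

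Because Eno3 is the enolase of muscle, it is shown beside a list of 12 skeletal muscle markers, all of them tested. The mean level of that list ranged over 7.24 to 8.87 in control and 8.55 to 9.71 in mutant distal mandible, 9.60 to 10.50 and 9.59 to 10.60 in proximal mandible, 6.24 to 9.10 and 6.72 to 8.14 in distal maxilla, and 6.85 to 8.80 and 6.37 to 9.72 in proximal maxilla. In the same order the median genotype difference of the 12 markers was 1.32, -0.11, -0.58 and 0.64, and 0 of them passed the test in any region, with 5, 0, 0 and 0 at an unadjusted p under 0.05. Eno3 differed by 1.04, 1.01, 1.19 and 1.13 in the same order, and the part of muscle content in these differences was not tested. Between the ends of the control mandible the muscle list differed by a median of -2.40 and Eno3 by 0.12 ± 0.18. Pgam2, the muscle phosphoglycerate mutase, differed by 0.12 on average (adjusted p = 0.518), and Eno2, the neuronal enolase, by -0.10 (adjusted p = 0.843). By region Pgam2 differed by 0.46, -0.17, -0.22 and 0.39 in the same order, none of which passed the test.

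**Figure D3:**
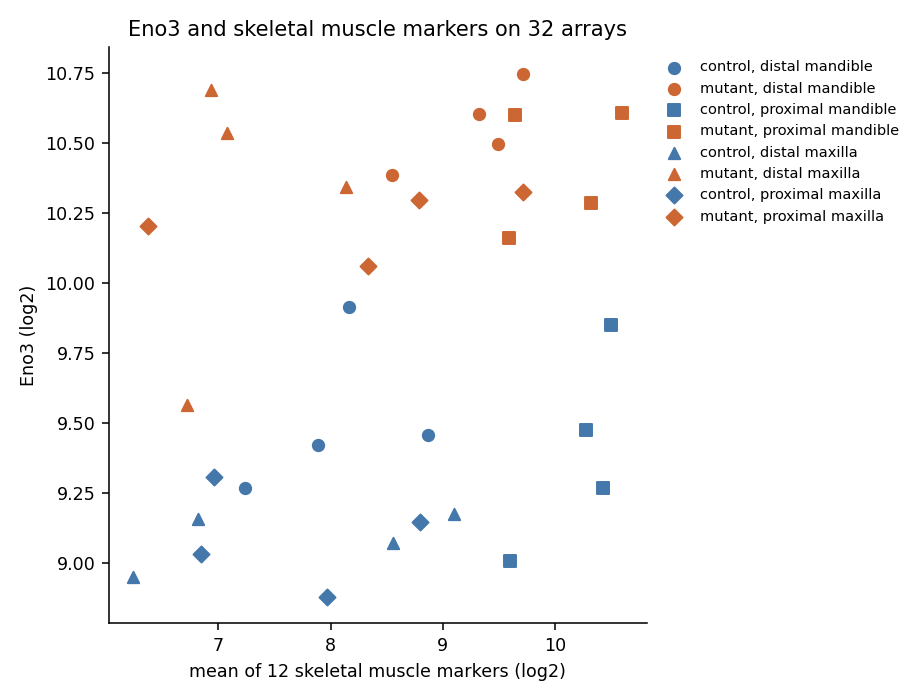
Eno3 (vertical axis, log2) against the mean of 12 skeletal muscle markers (horizontal axis, log2) on the 32 arrays, by genotype (colour) and region (symbol). Mutant distal maxilla arrays combine marker means of 6.72 to 8.14 with Eno3 of 9.57 to 10.69, and control proximal mandible arrays combine 9.60 to 10.50 with 9.01 to 9.85.

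A list of 12 macrophage markers also moved with genotype, with a median average effect of 0.63 and 6 of 12 called, all higher. By region its median was -0.13, 0.91, 0.78 and 0.97 from distal mandible to proximal maxilla, with 1 marker called lower in distal mandible. Its mean level was 7.76 to 8.49 in control and 7.76 to 7.93 in mutant distal mandible, 8.05 to 8.43 and 8.86 to 9.16 in proximal mandible, 7.89 to 8.79 and 8.33 to 9.42 in distal maxilla, and 7.74 to 8.48 and 8.70 to 9.42 in proximal maxilla. The part of macrophage content in the values of Eno3 and of the other members was not tested. The neighbours of Eno3 on its chromosome, Pfn1 and Spag7, differed by 0.04 and 0.02 on average (adjusted p = 0.758 and 0.903).

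The distal mandible was the region with calls beyond Eno3. Hk2 and Ldha rose there, so that 3 of 29 members passed against 1.91% of all genes, and 0.482% of all genes passed as higher. Hk2 read 10.88, 11.09, 10.75 and 10.83 on control arrays and 11.18, 11.53, 11.28 and 11.57 on mutant arrays, a difference of 0.50 ± 0.13 (adjusted p = 0.0334), or 1.42-fold. Ldha read 13.39, 13.41, 13.20 and 13.30 against 13.62, 13.67, 13.56 and 13.68, a difference of 0.31 ± 0.08 (adjusted p = 0.0428), or 1.24-fold. Neither gene overlapped between genotypes. The pair are the first enzyme of glycolysis and the enzyme that ends it in lactate. Other marker lists moved in this region as well. Besides the muscle list, with its median of 1.32, the mean level of 10 neuron markers was 8.16 to 8.87 on control and 7.80 to 8.01 on mutant arrays, without overlap. Of these markers 9 were below 0, with a median of -0.29, and 1 was called, Stmn2 (-2.49 ± 0.44, adjusted p = 0.00245). The mean level of 5 neural crest mesenchyme markers was 12.95 to 13.13 against 12.76 to 12.94, also without overlap, with 4 of 5 below 0, a median of -0.07 and 0 called (limma; 1 at an unadjusted p under 0.05). The part of these lists in the Hk2 and Ldha differences was not tested.

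Both calls were close to the threshold. Control array 3, whose Gapdh probe sets differed between ends, held the lowest control value of each gene, and without it the differences were 0.46 for Hk2 (adjusted p = 0.113) and 0.26 for Ldha (adjusted p = 0.148), while Eno3 kept its call at 1.17 (adjusted p = 0.00174). Hk2 kept its call without number 1, control array 2 or mutant array 1, and lost it in the other 9 omissions of a number or array (adjusted p from 0.0567 to 0.336). Ldha kept its call without number 1 or control array 2, and lost it in the other 10 (0.0625 to 0.375). A fit of only the 2 groups compared gave 0.0657 for Hk2 and 0.0809 for Ldha, and Ldha was also not called without a filter on low values (0.0578). Without number 1, Pfkfb3 (0.65) and Egln3 (0.77) passed too, and 2.56% of all genes were called. With the replicate number as a block the number of called members in distal mandible was 5, with Pfkfb3 (0.58, adjusted p = 0.0421) and Pgk1 (0.22, adjusted p = 0.0251) added, and 5.32% of all genes were called.

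Outside the distal mandible Hk2 and Ldha did not pass the test. Hk2 read 10.91, 10.64, 10.67 and 10.72 in control and 10.72, 11.11, 10.95 and 10.82 in mutant proximal mandible, a difference of 0.16 (adjusted p = 0.707). It read 10.94, 10.54, 10.95 and 10.90 against 10.97, 10.99, 10.78 and 10.72 in distal maxilla, a difference of 0.03, and 10.90, 10.98, 10.55 and 10.39 against 11.02, 10.73, 10.70 and 10.97 in proximal maxilla, a difference of 0.15. The genotypes overlapped in all of these. For Ldha the proximal mandible gave 13.48, 13.23, 13.15 and 13.31 against 13.30, 13.43, 13.37 and 13.31, a difference of 0.06. Distal maxilla gave 13.46, 13.20, 13.39 and 13.42 against 13.61, 13.55, 13.53 and 13.49, without overlap and with a difference of 0.18 (adjusted p = 0.319). Proximal maxilla gave 13.51, 13.54, 13.27 and 13.18 against 13.47, 13.46, 13.45 and 13.62, a difference of 0.12 with overlap. The interaction of genotype with jaw did not pass for Hk2 (0.24 ± 0.13, adjusted p = 0.941), nor did that of genotype with end for Ldha (0.15 ± 0.08, adjusted p = 0.974), so a difference of the effect between regions was not shown.

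Across regions the members leaned the same way. In distal mandible, proximal mandible, distal maxilla and proximal maxilla, 23, 23, 25 and 24 of 29 were above 0, with medians of 0.21, 0.14, 0.13 and 0.23, against all-gene medians of -0.03, 0.01, -0.03 and 0.02. All mutant arrays lay above all control arrays in 6 members in distal mandible (Hk2, Pgk1, Eno3, Pkm, Ldha and Bnip3), 3 in proximal mandible (Eno3, Egln1 and Adm), 2 in distal maxilla (Eno3 and Ldha) and 3 in proximal maxilla (Pfkfb3, Pgam1 and Eno3). Over all genes this arrangement held for 4.3%, 6.33%, 2.18% and 2.08%. The regions may come from the same embryos, so they are not independent repeats of each other. In 0 members did the interaction of genotype with jaw or with end pass the test (1 and 2 at an unadjusted p under 0.05, against 4.79% and 5.25% of all genes), in which 0.0073% and 0.0146% of all genes were called.

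**Figure D4:**
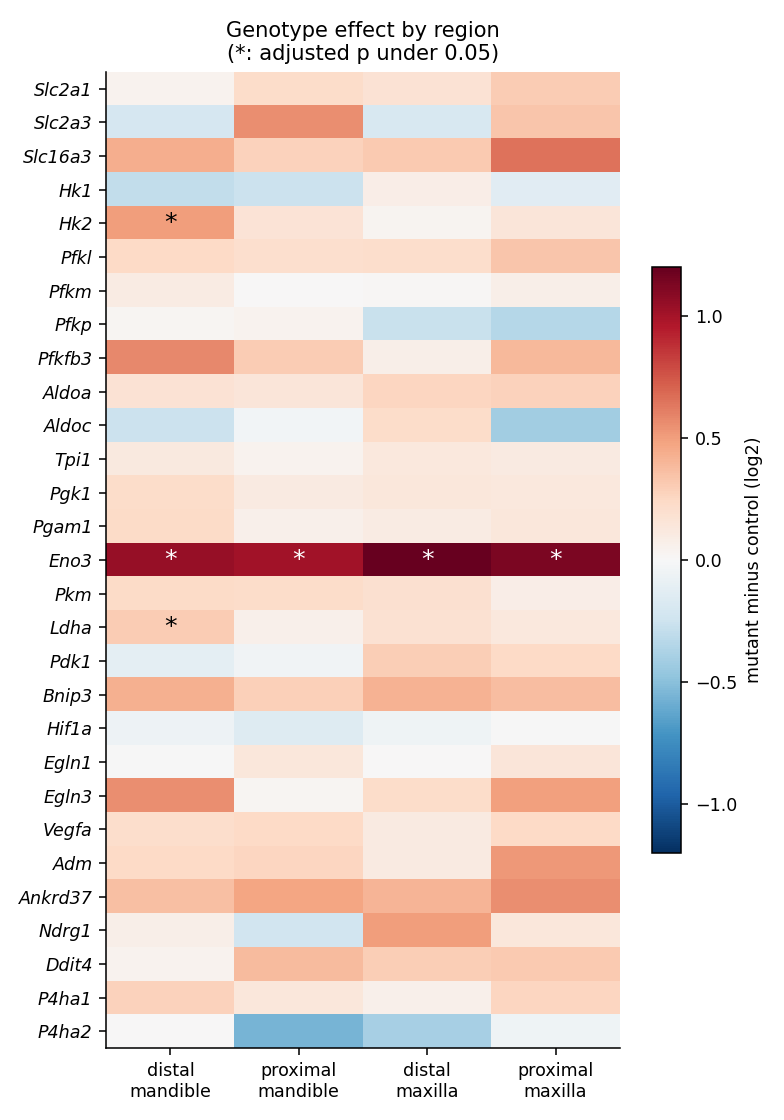
Genotype effect (log2, mutant minus control, colour) of the 29 tested members (rows) in the 4 regions (columns), with an asterisk where the adjusted p was under 0.05. Eno3 carries 4 asterisks at 1.01 to 1.19, and Hk2 and Ldha carry 1 each in distal mandible at 0.50 and 0.31.

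At the gate between glycolysis and mitochondria, Pdk1, the kinase that switches off pyruvate dehydrogenase, differed by 0.09 ± 0.06 on average (adjusted p = 0.605). The other probe sets of Pdk1 differed by 0.17, 0.15 and 0.31, the last of them below the filter level on 28 arrays. Bnip3, a mitophagy receptor and HIF target, differed by 0.38 ± 0.10 (adjusted p = 0.118). In distal mandible Bnip3 read 11.94, 11.95, 11.90 and 11.88 in controls and 12.30, 12.54, 12.15 and 12.40 in mutants, without overlap. In proximal mandible it read 11.90, 11.71, 11.43 and 11.71 against 11.82, 12.14, 11.95 and 11.98. In these 2 regions its differences were 0.43 and 0.28 (adjusted p = 0.0992 and 0.408). In distal maxilla it read 12.09, 11.62, 11.74 and 11.78 against 12.001, 12.37, 12.22 and 12.33, and in proximal maxilla 12.14, 11.97, 11.54 and 11.39 against 12.005, 12.16, 11.99 and 12.37. In proximal mandible and at both ends of the maxilla, array 1 was the highest control and lay above the lowest mutant array, so the genotypes overlapped.

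Among the oxygen sensing genes, Hif1a, the regulated HIF subunit, differed by -0.07 ± 0.06 on average (adjusted p = 0.685), with other probe sets from -0.15 to 0.08. Egln1, the main prolyl hydroxylase, differed by 0.07 ± 0.05 (adjusted p = 0.573). Egln3, the prolyl hydroxylase most induced by hypoxia, differed by 0.32 ± 0.16 (adjusted p = 0.406). Egln3 read 9.11, 9.02, 8.91 and 8.71 in control and 9.03, 9.83, 9.29 and 9.83 in mutant distal mandible, and 8.95, 8.89, 9.02 and 9.04 against 8.80, 9.49, 8.81 and 8.88 in proximal mandible. In distal maxilla it read 8.85, 8.41, 8.56 and 8.79 against 8.47, 9.19, 8.81 and 9.02, and in proximal maxilla 8.68, 8.45, 8.39 and 8.05 against 8.30, 9.13, 8.78 and 9.34. Mutant array 1 was the lowest mutant array in all 4 regions, and the genotypes overlapped in each.

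The secreted and signalling targets were all above 0 on average, 5 of 5, and 0 passed the test. At an unadjusted p under 0.05 stood 2 of the 5, against 14.04% of all genes. Ankrd37, a transcript strongly induced by HIF, differed by 0.45 ± 0.18 (adjusted p = 0.316), Adm (the vasodilator adrenomedullin) by 0.28 ± 0.10, Ddit4 (an inhibitor of mTORC1 signalling) by 0.26 ± 0.13, Vegfa (the endothelial growth factor) by 0.20 ± 0.14 and Ndrg1 by 0.12 ± 0.21. In distal mandible Ankrd37 read 8.83, 9.19, 9.07 and 8.99 in controls and 8.93, 9.82, 9.21 and 9.55 in mutants. In proximal mandible it read 8.67, 8.81, 8.46 and 8.89 against 8.72, 9.63, 9.11 and 9.25. In distal maxilla it read 8.79, 8.71, 8.85 and 8.92 against 8.58, 9.53, 9.17 and 9.62. In proximal maxilla it read 8.71, 8.92, 8.68 and 8.56 against 8.61, 9.67, 9.22 and 9.58. Mutant arrays 2 to 4 were above all controls in every region, and mutant array 1 lay within the control range in 3 regions and below it in distal maxilla.

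Of the collagen prolyl hydroxylases, which modify procollagen in the secretory pathway, P4ha1 differed by 0.18 ± 0.14 and P4ha2 by -0.25 ± 0.12 on average (adjusted p = 0.636 and 0.406). The other probe set of P4ha1 differed by 0.41 on average. In distal mandible it differed by 0.88, against 0.28 at the tested set. In controls this other set was -0.40 in distal mandible against distal maxilla and -0.69 against proximal mandible. The Gapdh 5' control set gave 0.69, -0.57 and -0.54 in the same comparisons. The part of control distal mandible array 3, whose Gapdh probe sets differed between ends, in the 0.88 was not tested. P4ha2 in proximal mandible read 11.29, 10.39, 10.26 and 10.53 in controls and 10.08, 10.15, 9.999 and 10.04 in mutants, which did not overlap. This was the 1 member with all mutant arrays below all controls in a region (5.5% of all genes in proximal mandible). Its difference there was -0.55 ± 0.17 with an adjusted p of 0.107, and with the replicate number as a block the adjusted p was 0.0493. Under that block 3 members passed in proximal mandible, with Ddit4 (0.38) beside Eno3 and P4ha2, and 3.49% of all genes were called. In distal mandible P4ha2 read 10.97, 10.68, 10.34 and 10.54 against 10.64, 10.69, 10.53 and 10.69, a difference of 0.01. In distal maxilla it read 10.60, 10.32, 10.27 and 10.43 against 9.63, 10.27, 10.18 and 9.94, and in proximal maxilla 10.38, 10.40, 9.86 and 10.35 against 10.15, 10.21, 10.14 and 10.27, with overlap in both.

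The members did not behave alike over the 4 numbers. Taking mutant minus control within each number over the 4 regions, the median of the 29 members was -0.00 in number 1, 0.28 in number 2, 0.19 in number 3 and 0.24 in number 4, and 14, 26, 26 and 23 members were above 0. The all-gene medians were -0.01, -0.00, -0.01 and 0.01. Ankrd37 differed by -0.04 in number 1 and by 0.76, 0.41 and 0.66 in the others. Bnip3 differed by 0.01 against 0.49, 0.42 and 0.58, and Egln3 by -0.25 against 0.72, 0.20 and 0.62. Eno3, Pkm and Pgk1 did not share this gap, with Pkm at 0.24, 0.22, 0.16 and 0.10 and Pgk1 at 0.10, 0.16, 0.18 and 0.14.

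Without number 1, 12 of 29 members (41.4%) passed the test for the average effect, while 6.85% of all genes did. They were Eno3 (1.13), Ankrd37 (0.61), Slc16a3 (0.54), Egln3 (0.51), Bnip3 (0.50), Pfkfb3 (0.45), Ddit4 (0.34), Pfkl (0.31), Slc2a1 (0.31), Aldoa (0.27), Hk2 (0.26) and Ldha (0.21), all higher in mutants, with adjusted p from 0.000961 to 0.0481. Without the control of number 1 alone, Bnip3 passed beside Eno3 (0.45, adjusted p = 0.0417), and without the mutant of number 1 alone, Ankrd37 did (0.63, adjusted p = 0.0466). With number 1 as a batch in the model, 6 members passed (Aldoa, Eno3, Pfkl, Pgk1, Pkm and Slc16a3) and 8.62% of all genes. With the replicate number as a block Eno3 was the 1 call, with 2.83% of all genes called. Eno3 was also the 1 call without number 2, 3 or 4, where the share of all genes called fell as low as 0.0073%. Number 1 differed from the others in its spike-in control, and its mutant arrays were female and its control arrays male. In number 2 the control arrays were female. Control array 1 had the highest control mean of a list of cartilage markers in every region (9.97 to 11.07, others 8.76 to 10.25). On mutant array 1 this mean was 8.61 to 8.96, and on other mutant arrays 8.42 to 10.32. The mean of the further hypoxia genes counted below was also highest on control array 1 in every region. It was 10.44 to 10.50 there and 10.18 to 10.41 on other control arrays. The part of these properties in the gap between numbers was not tested. With sex as a covariate Eno3 kept its call at an adjusted p of 0.00213, and the other members stayed uncalled. The share of all genes called in that fit is not given here.

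**Figure D5:**
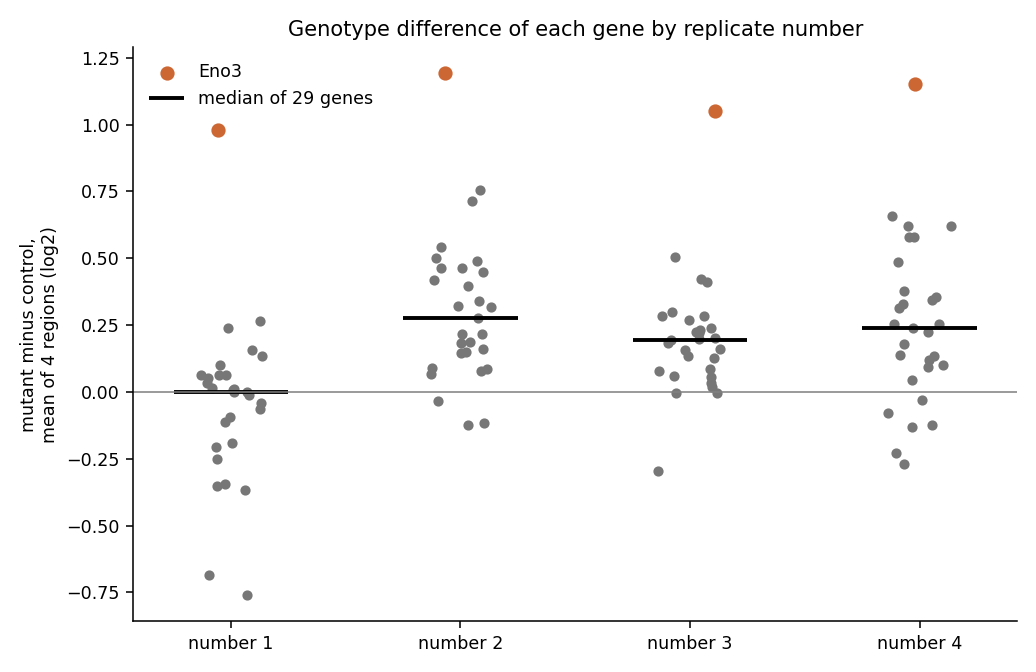
Mutant minus control (log2, mean of 4 regions, vertical axis) for each of the 29 tested members in each replicate number; the horizontal bars are the median over the members. The median is at -0.00 in number 1 and at 0.19 to 0.28 in the others, and Eno3 lies at 0.98 to 1.19 in all 4 numbers.

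Other genes of these pathways were counted from further lists. Of 25 further glycolysis genes, 20 were tested, 10 of them above 0 on average with a median of -0.01, and of 40 further hypoxia genes, 36 were tested, 20 above 0 with a median of 0.03. In either list 0 genes passed limma's test for the average effect. At an unadjusted p under 0.05 stood 4 and 8 of them, against 14.04% of all genes. Ldhb, the lactate dehydrogenase subunit of oxidative tissue, rose in proximal mandible (0.43 ± 0.10, adjusted p = 0.0318). Kdm3a, a histone demethylase induced by HIF, rose in proximal mandible (0.35 ± 0.09, adjusted p = 0.0427) and distal maxilla (0.38 ± 0.09, adjusted p = 0.0431), and P4ha3, another collagen prolyl hydroxylase, fell in proximal mandible (-1.12 ± 0.29, adjusted p = 0.0475). The 25 tested genes of pyruvate dehydrogenase and the citric acid cycle had a median of 0.05. The 6 of the pentose phosphate pathway also had a median of 0.05, and in either list 0 were called on average. Here 4 and 1 were at an unadjusted p under 0.05, where 14.04% of all genes stood.

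Finally, the regions of control embryos were compared. Between mandible and maxilla 0 members passed at the distal end (3 at an unadjusted p under 0.05, where 10.1% of all genes stood, and 1.47% of all genes called) and 1 at the proximal end (5.4% of all genes called). That gene, Pdk1, read 11.23, 11.32, 11.22 and 11.20 in proximal mandible and 11.16, 10.97, 10.76 and 10.48 in proximal maxilla, without overlap. The difference was 0.40 ± 0.10 (adjusted p = 0.0163). The other 3 probe sets of Pdk1 differed by 0.14, 0.12 and -0.32, the last of them below the filter level on 28 of 32 arrays, and the mean of all 4 differed by 0.09 (adjusted p = 0.855). It also did not pass without the 2 control maxilla arrays of number 3 with intermediate Xist (0.37, adjusted p = 0.0695), nor in a fit of only the 2 groups compared (adjusted p = 0.192), nor without number 2, 3 or 4 (highest adjusted p = 0.237), proximal mandible array 2 (0.0554) or proximal maxilla array 3 or 4 (0.0596 and 0.0910). With the replicate number as a block 2 members passed at the proximal end and 7.18% of all genes were called. These were Pdk1 (adjusted p = 0.0167) and Aldoc, the aldolase of brain, which was lower in mandible (-1.03, adjusted p = 0.0373 with the block and 0.0889 without it).

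In distal tissue Pdk1 read 11.31, 11.13, 11.28 and 11.32 in control mandible and 11.17, 10.77, 10.98 and 10.79 in control maxilla, a difference of 0.33 ± 0.10 (adjusted p = 0.128). In mutants it read 11.03, 11.18, 11.16 and 11.17 in distal and 11.24, 11.16, 11.13 and 11.28 in proximal mandible, and 11.12, 11.37, 11.25 and 11.15 in distal and 11.04, 11.06, 11.01 and 11.20 in proximal maxilla. The mutant jaws overlapped at both ends, and the interaction of genotype with jaw was -0.34 ± 0.10 for Pdk1, which did not pass the test (adjusted p = 0.548). These values are of the tested probe set. Its other probe sets differed between distal control jaws by 0.06, -0.06 and 0.47, the last of them below the filter level on 28 arrays. In the same order their genotype differences in distal mandible were 0.15, 0.15 and 0.40, against -0.12 at the tested set.

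Between the ends of the control mandible 0 members passed (3 at an unadjusted p under 0.05, where 16.2% of all genes stood, and 4.84% of all genes called). The largest differences were distal higher for Slc2a3 (0.70 ± 0.27, adjusted p = 0.157), Aldoc (0.69 ± 0.35, adjusted p = 0.329) and Slc2a1 (0.52 ± 0.17, adjusted p = 0.0849), and proximal higher for Pfkm (-0.30 ± 0.10, adjusted p = 0.0943), the muscle-type phosphofructokinase. With the replicate number as a block 3 members passed, Slc2a1 (adjusted p = 0.0168), Slc2a3 (0.0378) and Pfkm (0.0164), with 6.55% of all genes called. The skeletal muscle list differed by -2.40 in this comparison, and its part in the Pfkm value was not tested. Between the ends of the control maxilla 0 members passed, 0 were at an unadjusted p under 0.05, and 0 of all genes were called.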

How the data were processed

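Biotin-labelled cRNA made from 5 µg of total RNA was hybridised to Affymetrix mouse arrays, 1 array per sample. The authors deposited 1 log2 value for each probe set and array, made with RMA per the submitters' processing notes, with version and genome build not given in the sources used here. RMA as usually run brings arrays to 1 distribution, so a shift of most genes one way could be lost, and low signals have compressed differences. The deposited arrays were not on exactly 1 distribution. Their medians ran from 7.35 to 7.49, and mutant distal maxilla array 1 had the narrower SD of 2.37. Precision is limited by the number of arrays.

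GEO's platform annotation gave 1 gene symbol to 34945 of 45101 probe sets, several to 932 and none to 9160, and 64 were controls. 34741 of those with 1 symbol were matched to RefSeq by Entrez identifier. A probe set was kept when 4 or more arrays had it above their percentile 40. The probe set with the highest mean stood for its gene.

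Tests used limma 3.58.1 in R 4.3.3, with Benjamini-Hochberg adjustment over 13705 genes and a threshold of 0.05. A model of 8 group means (24 residual degrees of freedom) gave regional, jaw, end and interaction effects. The average genotype effect used per-number means of 4 regions, 4 against 4 (6 residual degrees of freedom). It is a fit without pairing, and the replicate number as a block is an alternative. Every adjusted p is from limma. Correlations of same-numbered deviations for the average effect were 0.44, 0.20, 0.40 and 0.23, all above 0.1, although no label says that a number pairs arrays. In no regional comparison did all pairs exceed 0.1. Arrays of 1 group correlated at 0.926 to 0.997, and 0 were identical.

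The members and lists were chosen with earlier results of these data known. Members called in a genotype comparison, and in each role the member with the largest average effect, are given on every array, beside Tgfbr1 and up to 4 called genes of each further list per comparison. Sex as a covariate, and leaving out 2 control maxilla arrays with intermediate Xist, were added after seeing the data. Genes between regions were named for their values after these were seen.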

Additional observations from a re-analysis of the deposited data

Results flagged for a closer look

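In 80 groups of 4 arrays (10 genes in 8 groups), 9 had 1 array that lay far from the other 3 for its range. Chance alone gives about 1 in 20 such groups. Slc16a3 was far higher on array 1 in control distal mandible (9.01, others 7.26 to 7.45), control proximal mandible (8.70, others 6.88 to 7.18) and mutant distal maxilla (8.83, others 7.59 to 7.73). Also on array 1, Pfkfb3 was low in mutant distal maxilla (8.14, others 9.22 to 9.42) and Pdk1 was low in mutant distal mandible (11.03, others 11.16 to 11.18). Hk2 was low on array 2 of control distal maxilla (10.54, others 10.90 to 10.95), and Egln3 was high on array 2 of mutant proximal mandible (9.49, others 8.80 to 8.88). P4ha2 was low on array 3 of control proximal maxilla (9.86, others 10.35 to 10.40), and Ldha was high on array 4 of mutant proximal maxilla (13.62, others 13.45 to 13.47).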

How the results depend on the processing

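No called result changed sign under any alternative (0 reversed). Eno3 passed for the average effect under all 19 alternatives. The larger changes in the number of called members were as follows, with the share of all genes called in parentheses. Smaller changes, such as the loss of Ldha in distal mandible without a filter on low values, are left out of this list. With the replicate number as a block it was 5 in distal mandible (5.32%), 3 in proximal mandible (3.49%), 2 between jaws in proximal control tissue (7.18%) and 3 between ends of the control mandible (6.55%), and the block changed no other such count. With number 1 as a batch it was 6 for the average effect (8.62%), 6 in distal mandible (5.71%), 2 between jaws proximally (7.48%) and 2 between ends of the mandible (6.75%). In a fit of only the groups compared it was 1 in distal mandible (1.87%), 0 in distal maxilla (0.0146%), 0 in proximal maxilla (0%) and 0 between jaws proximally (3.01%). Between jaws proximally it was also 0 with the mean of a gene's probe sets (5.25%) and 0 without the 2 control maxilla arrays of number 3 (4.01%). The cause was not tested.

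With each number or array left out in turn, called members, with the range of all genes called in parentheses, ranged from 1 to 12 for the average effect (0.0073% to 6.85%), 0 to 5 in distal mandible (0.241% to 2.56%), 0 to 2 in proximal mandible (0.241% to 1.44%), 0 to 2 in distal maxilla (0.0219% to 2.39%), 0 to 1 in proximal maxilla (0% to 0.233%), 0 to 1 between jaws distally (0.482% to 2.56%), 0 to 3 proximally (1.95% to 6.45%) and 0 to 2 between ends of the mandible (0.7% to 6.84%). Members added by such omissions were Pkm in proximal mandible (without control array 4), Bnip3 in distal maxilla (without number 1), Pdk1 between jaws distally (without number 1 or control distal maxilla array 1), Slc2a1 between ends of the mandible (without number 1 or control proximal mandible array 1) with Pfkm (without number 1), and Pfkp, Egln3 or Aldoc between jaws proximally. The median over members ranged from 0.14 to 0.26 for the average effect. Over all genes, the average effect called 188 genes, 388 with the block, 1182 with number 1 as a batch, 939 without number 1, and 5, 14 and 1 without numbers 2, 3 and 4.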
